A study of Mus musculus with 192 samples.

Results

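Collagens are the structural proteins of the extracellular matrix, and the genes described here encode their alpha chains. They were chosen by name: a gene was a member if its symbol in the deposited expression table consisted of Col, a type number, the letter a and a chain number. This rule found 44 of the 54752 genes of the table. They were grouped as 11 fibrillar chains, 6 basement membrane chains (type IV), 9 FACIT chains (fibril-associated collagens with interrupted helices) and 18 chains of other types.

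Expression was measured by RNA sequencing in the MHU-3 mouse project, in which male C57BL/6 mice, listed as 12 weeks old, stayed on the International Space Station for about a month (flight, FL) or were kept in the same cage units on the ground (ground control, GC), 1 mouse per cage. Each condition held wild-type mice (WT) and Nrf2-KO mice, which carry a germline disruption of Nfe2l2 and so lack the transcription factor Nrf2, an activator of antioxidant and detoxification genes. The 4 groups are called GC_WT, FL_WT, GC_KO and FL_KO. In all, 192 samples of 9 tissues were sequenced. The fat depots were white fat of the epididymis (eWAT) and brown fat from between the shoulder blades (iBAT), the bones were the mandible (MdB) and the temporal bone (TpB), and the organs were thymus (Thy), spleen (Spl), liver (Liv), cerebrum (Cbr) and kidney (Kid). A group held 6 mice per tissue, and 3 in MdB and Kid. Flight mouse 04, an Nrf2-KO mouse with intestinal bleeding on its return that the study set aside, was left out, which leaves 184 samples and 5 FL_KO mice (2 in MdB, 3 in Kid). Nrf2-KO mice judged to have a hepatic shunt had not been used by the study. The study's methods give 12 weeks as the age when mice were ready for transport, so flight tissues came from older mice. Flight mice were dissected after landing, and the ground control was run later and at another site, so that flight, season and site cannot be told apart. The same mouse gave several tissues, and the tissues are therefore not independent of each other.

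Alpha chains assemble in the endoplasmic reticulum into a helix, are trimmed outside the cell and join into larger forms. Fibrillar collagens form the tension-bearing fibrils of bone, cartilage, tendon and skin, with types V and XI controlling how fibrils start and how thick they grow. Type IV chains form the sheet of the basement membrane under epithelia, around vessels and around every adipocyte. FACIT collagens sit on fibril surfaces, and type VI forms beaded filaments next to cells, prominent in fat and muscle. Other types anchor the epidermis (type VII), span the cell membrane (types XIII, XVII, XXIII and XXV) or carry an end that can be cut off and act on vessels (types XV and XVIII).

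Libraries held between 8.01 M and 10.6 M expected counts (M, mega) in Thy, where rRNA was depleted from total RNA, and between 13.1 M and 16.3 M in the other tissues, made from poly(A) RNA. Nfe2l2 checked the genotype labels: it was lower in GC_KO than in GC_WT mice in all 9 tissues, from a log2 fold change of -1.81 in Cbr to -0.25 in Spl, and no Nrf2-KO mouse reached the wild-type range. Of the defining markers, Snap25, of neurons, had a median GC_WT level of 3205 TPM in Cbr. Some libraries also held transcripts of neighbouring muscle. In iBAT, Acta1 (skeletal actin) stood at 1838 TPM in FL_WT mouse 06, 913.9 in FL_WT mouse 08 and 2622 in FL_KO mouse 11, against at most 20.85 in every other mouse. In TpB the summed level of 6 skeletal muscle markers ran from 398.3 to 24050 TPM. In bulk tissue, fewer cells of a type and less RNA per cell cannot be told apart, and this holds for every difference below.

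Levels are given as TPM (read counts divided by transcript length and scaled to a fixed total per sample), which allow genes of different length to be compared within a sample. Changes are log2 fold changes with their standard error from edgeR's quasi-likelihood test, and a gene was called when its p-value, adjusted over all genes tested in that tissue by the Benjamini-Hochberg method, was under 0.05. All adjusted p-values below are of this kind unless another tool is named. On the TPM scale the median gene was higher in flight by 0.31 (WT) and 0.43 (KO) on the log2 scale in iBAT and by 0.18 and 0.16 in Thy, whereas edgeR's scaling places the median gene near 0, so the fold changes are relative to those shifts and the TPM values contain them. Nothing in the sources used here ties mice to litters or dissection order, and the p-values measure the spread between these mice.

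Several of the genes lie next to each other. Col6a1 (chr10:76708792-76726168, minus strand, mm10) and Col6a2 (chr10:76595762-76623630, minus strand), whose products join with that of Col6a3 into type VI collagen, are neighbours on chromosome 10. Col6a6, Col6a5 and Col6a4, which encode alternative chains of type VI, follow each other on the minus strand of chromosome 9, with Col6a5 at chr9:105856078-105960643. Col4a1 (chr8:11198423-11312826, minus strand) and Col4a2 (chr8:11312805-11449287, plus strand) encode the common type IV chains, start head to head and overlap by 22 bases. The sources used here do not give the strand setting of the counting, so reads of that overlap cannot be assigned. Coordinates come from the GENCODE annotation.

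Promoter sequence from RefSeq (assembly GRCm38.p6, 250 bases before a transcript start) was at hand for 35 of the 44 members. The GC box (GGGCGG) was found in 21 of these members (60.0%), against 35.4% of all 27025 genes with a promoter in the table. The CCAAT box (CCAAT) was found in 13 (37.1%, all genes 37.5%) and the TATA box (TATAAA) in 5 (14.3%, all genes 14.3%), shares close to those of all genes. The core of the antioxidant response element, the kind of site that Nrf2 binds, was searched as TGACNNNGC and found in 6 members, Col4a2, Col6a2, Col6a5, Col7a1, Col9a2 and Col24a1 (17.1%, all genes 11.5%). Both strands were searched for each motif, a gene counts if any of its entries holds the motif (per entry, the 32851 promoters held the GC box in 32.7%, CCAAT in 33.8%, TATAAA in 12.4% and the antioxidant element core in 10.2%), and a match describes letters and not binding. The promoters of Col6a5, Col7a1, Col23a1 and Col6a2, which are named in the thymus and fat results, are shown. They run 5′ to 3′ along the gene's strand, with the motif letters in capitals. These genes do not stand for all called members. The promoter of Col6a1, also named in those results, held none of the motifs and is not shown. Col6a5 holds a GC box and an antioxidant response element core, Col7a1 holds a CCAAT box, an antioxidant response element core and a GC box, and Col23a1 holds a GC box. The Col6a2 entry printed here holds a GC box, while its antioxidant response element core lies in the entry of another transcript start.
Col6a5, chr9:105960644-105960893, minus strand: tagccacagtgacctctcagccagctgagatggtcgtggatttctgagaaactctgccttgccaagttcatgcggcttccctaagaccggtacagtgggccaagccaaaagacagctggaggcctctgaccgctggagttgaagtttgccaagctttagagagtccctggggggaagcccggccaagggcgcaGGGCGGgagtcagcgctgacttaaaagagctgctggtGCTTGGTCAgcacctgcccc
Col7a1, chr9:108953336-108953585, plus strand: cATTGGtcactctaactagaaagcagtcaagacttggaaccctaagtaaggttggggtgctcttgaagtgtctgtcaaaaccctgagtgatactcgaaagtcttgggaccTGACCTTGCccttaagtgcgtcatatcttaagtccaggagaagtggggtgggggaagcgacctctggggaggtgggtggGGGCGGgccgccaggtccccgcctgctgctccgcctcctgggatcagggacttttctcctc
Col23a1, chr11:51289670-51289919, plus strand: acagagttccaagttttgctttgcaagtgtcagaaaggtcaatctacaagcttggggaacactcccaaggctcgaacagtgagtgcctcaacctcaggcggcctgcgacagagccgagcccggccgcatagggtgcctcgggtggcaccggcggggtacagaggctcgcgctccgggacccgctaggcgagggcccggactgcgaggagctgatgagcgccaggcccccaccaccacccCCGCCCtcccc
Col6a2, chr10:76623631-76623880, minus strand: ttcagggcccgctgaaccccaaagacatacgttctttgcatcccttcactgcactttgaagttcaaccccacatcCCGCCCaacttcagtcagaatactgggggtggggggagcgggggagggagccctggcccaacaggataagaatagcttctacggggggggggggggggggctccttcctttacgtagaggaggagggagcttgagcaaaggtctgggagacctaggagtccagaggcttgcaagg

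Collagen genes differed widely in level between tissues, and each tissue had its own leading chains. In GC_WT mandibular bone Col1a1, the main chain of bone fibrils, stood at 18020, 13620 and 13650 TPM in mice 03, 07 and 08, followed by its partner Col1a2 (median 1980 TPM) and Col11a2 (641.5 TPM). Temporal bone had the same 3 leading genes at lower levels, with Col1a1 at 345.9 TPM in the lowest mouse, 468.1 at the median and 899.3 in the highest, Col1a2 at a median of 402.4 and Col11a2 at 89.98. In eWAT the leading medians were 384.7 TPM for Col4a1, 258.7 for Col4a2 and 256.7 for Col15a1. Col4a1 and Col4a2 also led in iBAT at 56.41 and 45.94 TPM, followed by Col3a1 at 21.55. The ranges of Col4a2 (179.2 to 348.4 TPM) and Col15a1 (153.7 to 352.5 TPM) in eWAT overlapped, so the order of these neighbours is not separated by the mice.

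Liver was dominated by a single chain: Col18a1, the source of endostatin, ran from 237.3 to 291.6 TPM (median 261.3), and the next was Col27a1 at 20.1 TPM, then Col5a3 at 6.865. In kidney the leading genes were Col4a3 (median 56.35 TPM), Col18a1 (44.22) and Col4a4 (42.61); Col4a3 and Col4a4 encode chains of the glomerular basement membrane, and their next highest tissue was TpB at 1.34 and 1.46 TPM. In spleen Col1a2 (63.1 TPM), Col4a1 (51.36) and Col14a1 (49.39), a FACIT chain, led. In thymus Col6a1 (11.25 TPM), Col6a2 (10.66) and Col4a1 (10.25) had overlapping ranges, as had Col6a1 (21.75) and the neuronal membrane collagen Col25a1 (21.71) in cerebrum, where Col4a2 (17.58) followed. Col2a1 and Col10a1, chains of cartilage, peaked in TpB at 21.51 and 3.245 TPM, and Col17a1, of epithelial hemidesmosomes, in MdB at 112.6 TPM. The number of members with a median of at least 10 TPM was 23 in TpB, 25 in MdB, 10 in Spl, 2 in Liv, 14 in eWAT, 6 in iBAT, 3 in Thy, 6 in Kid and 5 in Cbr.

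**Figure D1:**
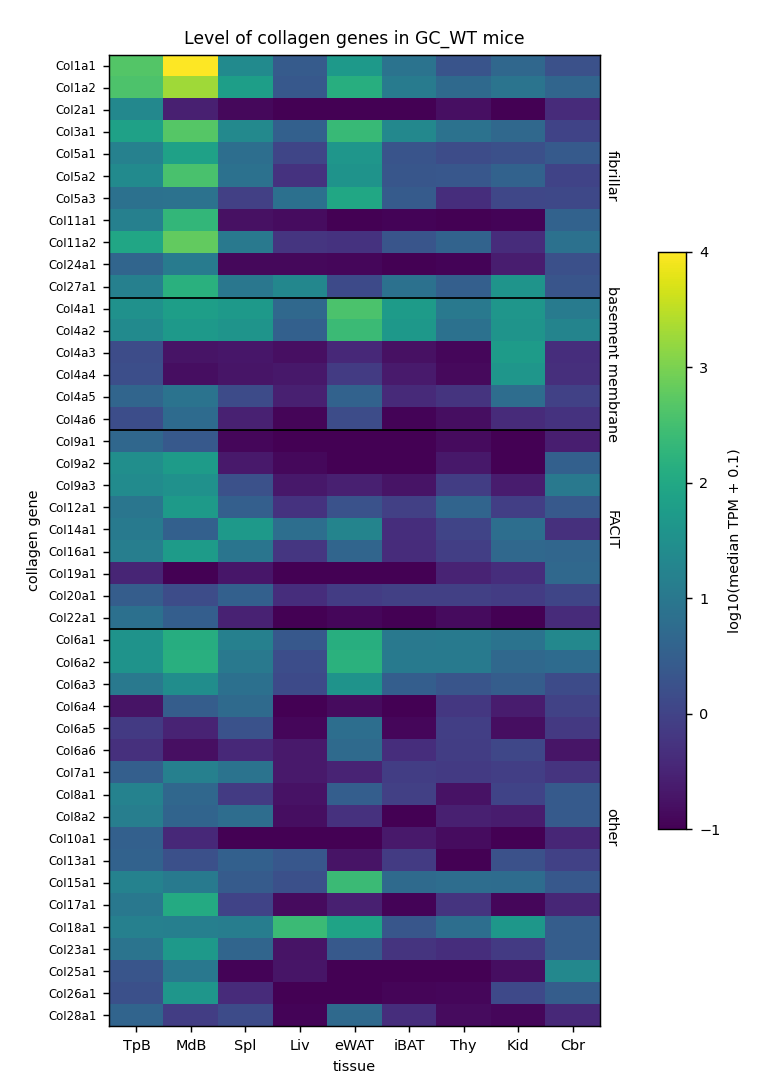
Heat map of the median level of the 44 collagen genes in GC_WT mice, as log10(median TPM + 0.1), with genes in rows grouped by class and the 9 tissues in columns. The brightest cell is Col1a1 in MdB (13650 TPM), Col4a3 and Col4a4 stand out in Kid, and Col18a1 in Liv (261.3 TPM).

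Chains that assemble together did not keep 1 ratio across all tissues. The ratio of Col4a1 to Col4a2 TPM varied little outside Cbr. Its GC_WT medians lay between 1.09 (Kid) and 1.49 (eWAT), against 0.684 in Cbr. The ratio of Col6a1 to Col6a2 TPM in GC_WT mice had a median of 1.12 in Thy, 0.900 in eWAT and 4.46 in Cbr. Within eWAT this ratio ran from 0.822 to 0.920 in GC_WT, from 0.964 to 1.02 in FL_WT, from 0.968 to 1.06 in GC_KO and from 1.11 to 1.20 in FL_KO. The ground and flight ranges did not overlap in either genotype. The ratio of Col3a1 to Col1a1, chains of different collagen types, was also taken in eWAT. It ran from 4.40 to 6.72 in GC_WT and from 2.92 to 3.93 in FL_WT, again without overlap. In Nrf2-KO mice it ran from 3.25 to 4.40 in GC_KO and 2.56 to 3.40 in FL_KO, which overlapped. These ratios were not tested.

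Of the 44 members, 28 were called changed by flight in at least 1 tissue and genotype and 16 were not called in any. There were 61 calls over genes, tissues and genotypes, of which 52 were higher and 9 lower in flight mice. Over the same tissues and genotypes, 49.6% of all genes tested were called at least once, against 63.6% of the members, and 7.73% of all tests were calls, against 9.93% of those on members. Of the calls over all genes 49.5% were higher, against 85.2% of those on members. Most lay in Thy, iBAT, eWAT and Spl. Col1a1 and Col1a2, the chains of the most abundant fibrillar collagen, were among the members never called. The comparisons of the 2 genotypes use separate mice, and each has its own ground control.

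**Figure D2:**
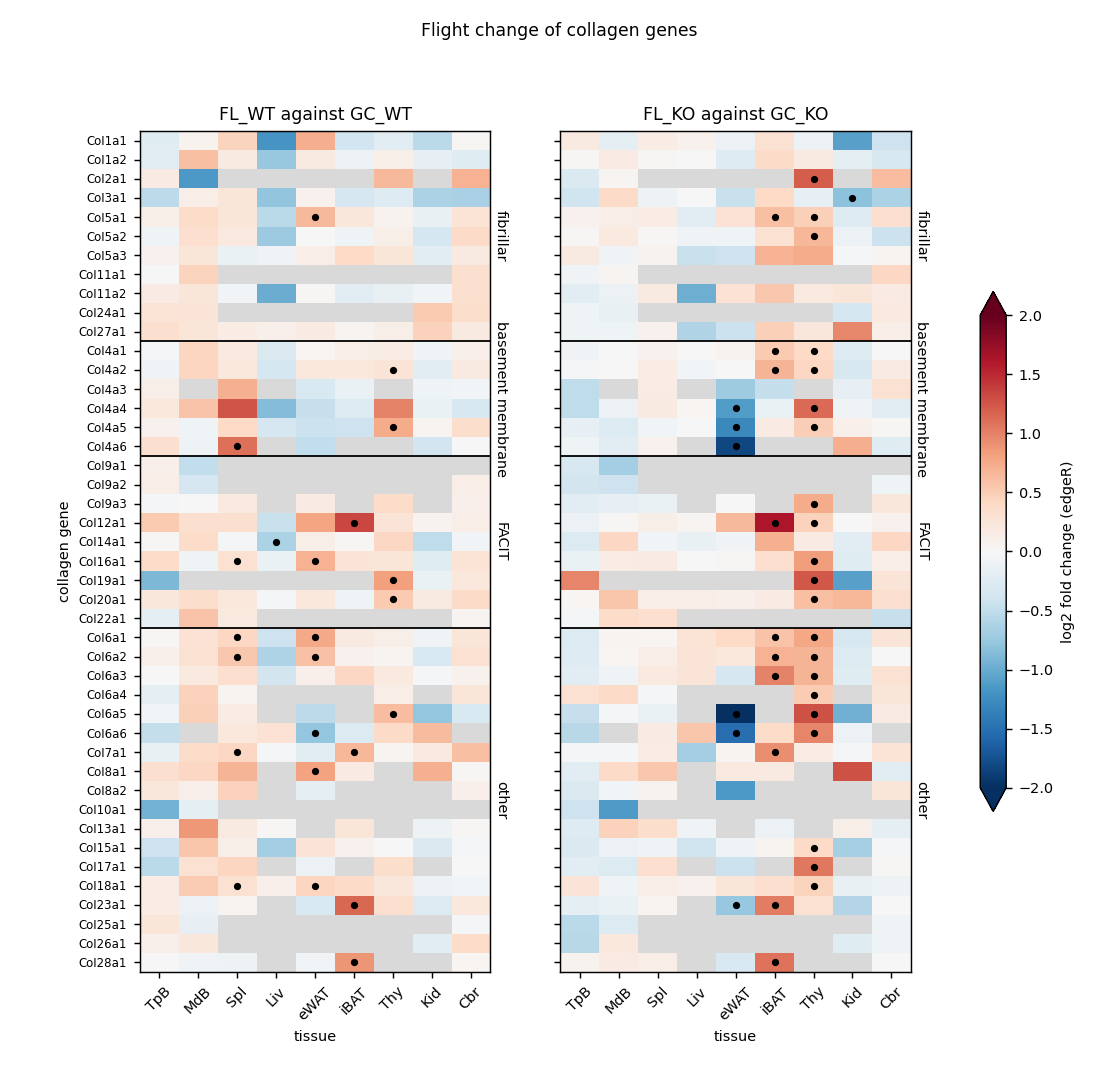
Heat maps of the log2 fold change (edgeR) of each collagen gene in flight against ground mice, WT on the left and Nrf2-KO on the right, with genes in rows by class and tissues in columns. Red is higher and blue lower in flight, black dots mark genes called at an adjusted p under 0.05, and grey marks genes not tested; the Nrf2-KO thymus column holds 21 of the 61 dots.

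In the thymus of FL_KO mice most of the tested collagen genes were called higher, and in FL_WT mice few were. In FL_KO mice 21 of the 30 tested members were called higher and none lower, where 19.3% of all genes tested were called higher. These were 9 of 11 chains of other types, 5 of 6 FACIT chains, all 4 basement membrane chains tested and 3 of 9 fibrillar chains. In FL_WT mice 5 members were called higher (all genes 11.8%): Col4a5, Col20a1, Col6a5, Col4a2 and Col19a1, and each of these 5 was also called in the Nrf2-KO mice. The median log2 fold change over the tested members was 0.51 in Nrf2-KO mice and 0.23 in WT mice, with 28 and 27 of 30 above 0, while the median of all genes was -0.0081 and 0.021.

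Type VI chains showed the clearest differences. Col6a1 ran from 7.15 TPM in the lowest GC_KO mouse over a median of 9.14 to 14.1 in the highest, and stood at 21, 19.3, 23.4, 19.4 and 17.4 TPM in FL_KO mice 01, 02, 09, 11 and 12. Every FL_KO mouse lay above every GC_KO mouse, and the log2 fold change was 0.78 ± 0.13 (SE, adjusted p = 4.23e-05). In the WT mice Col6a1 ran from 9.42 to 14.9 TPM (median 11.2) on the ground and from 11.7 to 20.5 (median 15) in flight, with overlap and a log2 fold change of 0.11 ± 0.12 (adjusted p = 0.527). Col6a5, at a low level, ran from 0.54 over 0.72 to 1.08 TPM in GC_KO and stood at 2.3, 1.87, 2.59, 1.82 and 2.14 TPM in the FL_KO mice, again without overlap (1.27 ± 0.18, adjusted p = 7.58e-06). Its WT values ran from 0.52 to 0.94 TPM on the ground and from 0.79 to 1.97 in flight (0.62 ± 0.18, adjusted p = 0.0126), with overlap. Col6a6 (0.97 ± 0.17, adjusted p = 7.06e-05) and the skin and epithelial chain Col17a1 (1.05 ± 0.20, adjusted p = 0.000191) were the next by adjusted p in the Nrf2-KO mice.

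The basement membrane chain Col4a2 ran from 4.86 over 6.21 to 7.53 TPM in GC_KO and stood at 9.76, 7.94, 11, 10.8 and 10.5 TPM in the FL_KO mice, all above the ground mice (0.42 ± 0.09, adjusted p = 0.000809). In the WT mice it ran from 6.32 to 8.38 TPM on the ground and from 8.36 to 13.1 in flight (0.26 ± 0.09, adjusted p = 0.0311), the groups just touching. Col4a1 was higher in the Nrf2-KO mice (0.39 ± 0.09, adjusted p = 0.00164), and had an adjusted p of 0.229 in WT mice. Col4a5 was the member with the smallest adjusted p in WT mice: 0.38 to 0.53 TPM on the ground against 0.66 to 1.09 in flight, without overlap (0.74 ± 0.18, adjusted p = 0.00459). Among FACIT chains, Col20a1 was called in both genotypes (WT 0.52 ± 0.14, adjusted p = 0.0110, and KO 0.59 ± 0.15, adjusted p = 0.00324), as was Col19a1 (WT 0.82 ± 0.28, adjusted p = 0.0363, and KO 1.24 ± 0.29, adjusted p = 0.00149).

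The chains of the main fibrils were not called in thymus. Col1a1 ran from 1.61 over 1.75 to 2.16 TPM in GC_KO and from 1.47 to 2.69 in FL_KO (-0.11 ± 0.21, adjusted p = 0.709). Col3a1 had a log2 fold change of -0.16 ± 0.19 (adjusted p = 0.550) in Nrf2-KO mice and -0.26 ± 0.18 (adjusted p = 0.304) in WT mice, and Col1a2 one of 0.18 ± 0.16 (adjusted p = 0.418) and 0.11 ± 0.15 (adjusted p = 0.636). Col5a2, a regulator of fibril thickness, was higher in Nrf2-KO mice (0.66 ± 0.14, adjusted p = 0.000848) with ranges that overlapped.

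**Figure D3:**
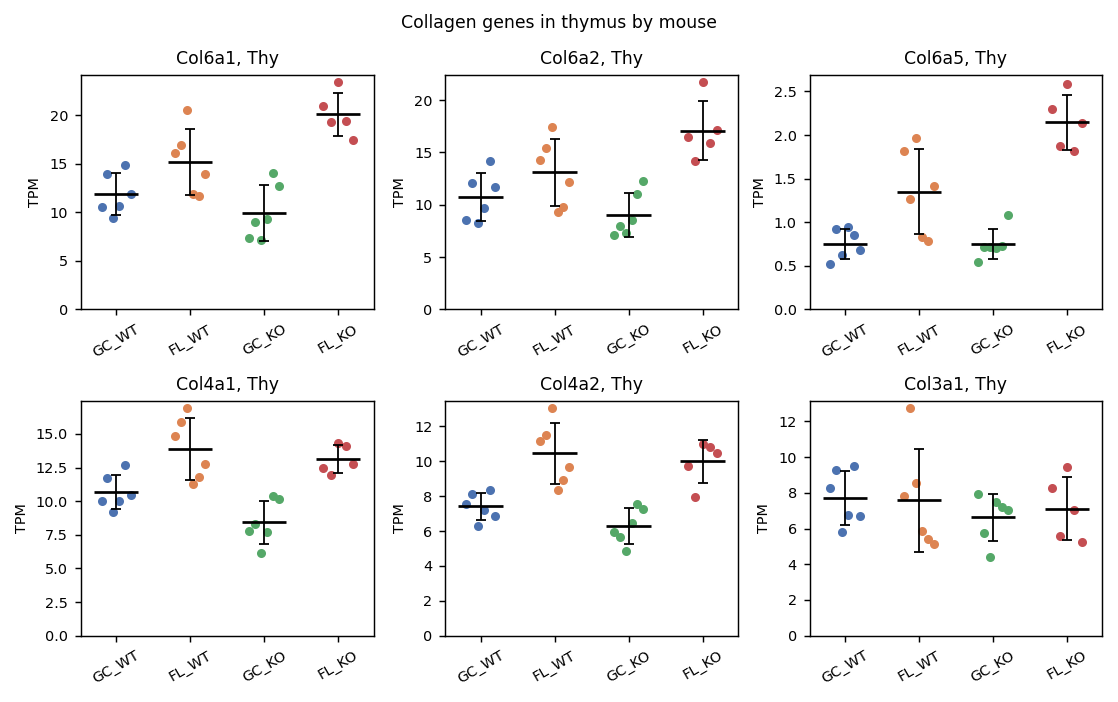
TPM of 6 collagen genes in thymus, 1 point per mouse, with the mean (bar) and SD (whiskers) of the GC_WT, FL_WT, GC_KO and FL_KO groups. Col6a1, Col6a2, Col6a5, Col4a1 and Col4a2 are higher in every FL_KO mouse than in every GC_KO mouse, and Col3a1 overlaps between all groups.

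Genes that work with collagen were counted from lists of 119 genes. In the Nrf2-KO thymus 58 of 107 tested list genes were called higher and 2 lower, where 19.3% of all genes were called higher and 18.9% lower. In the WT thymus 30 were called higher and 1 lower (all genes 11.8% higher, and lower in 1796 of 16307). Basement membrane partners stood first, with 14 of 16 higher in Nrf2-KO mice, among them Sparcl1, a matricellular protein (0.95 ± 0.11, adjusted p = 1.31e-06), and the laminin chain Lama3 (0.51 ± 0.07, adjusted p = 1.10e-05); 7 of 16 were higher in WT mice. Of the TGF-beta list 11 of 17 were higher, led by the inhibitor Smad7 (0.99 ± 0.12, adjusted p = 1.57e-06) and Ltbp1 (0.74 ± 0.09, adjusted p = 2.05e-06), and Smad2 and Smad4, signal transducers, were lower (-0.24 and -0.15). Of the folding enzymes and chaperones 6 of 21 were higher, including the collagen chaperone Serpinh1 (0.50 ± 0.09, adjusted p = 0.000159), and of the degrading proteases 6 of 7, including Mmp14 (0.59 ± 0.11, adjusted p = 0.000206).

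Cell markers moved in the same thymus libraries. The summed level of 5 fibroblast markers ran from 22.62 to 52.57 TPM in GC_KO and from 63.66 to 92 in FL_KO, and from 47.43 to 78.13 in GC_WT and 70.71 to 120 in FL_WT; 3 of 5 were called higher in Nrf2-KO and 2 of 5 in WT mice. The 3 thymocyte markers summed to 906.8 to 1458 TPM in GC_KO and 837.9 to 985.0 in FL_KO, with 2 of 3 called lower in each genotype, and all 5 proliferation markers were called lower in both. Their part in the collagen differences was not tested. The WT count was 3 without FL_WT mouse 03, 2 without FL_WT mouse 06, and 3 without GC_WT mouse 06 or 07.

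In brown fat the collagens called were all higher in flight. In FL_KO mice 10 of 28 tested members were called higher (all genes 17.0%) and in FL_WT mice 4 (all genes 8.83%), namely Col12a1, Col23a1, Col28a1 and Col7a1, each of them also called in the Nrf2-KO mice. The 10 comprised 6 of 11 chains of other types, 2 of 5 basement membrane chains, 1 of 4 FACIT chains and 1 of 8 fibrillar chains. Col12a1, a FACIT chain of stretched tissue, ran from 0.5 over 0.805 to 1.19 TPM in GC_WT and from 1.45 over 2.27 to 3.76 in FL_WT (1.33 ± 0.25, adjusted p = 0.000769). It ran from 0.43 to 0.78 TPM in GC_KO and stood at 2.78, 2.39, 1.37, 1.7 and 3.95 TPM in the FL_KO mice (1.62 ± 0.27, adjusted p = 7.74e-05). Neither pair of groups overlapped.

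Col23a1, a membrane collagen, ran from 0.29 to 0.58 TPM in GC_WT and from 1.06 to 1.66 in FL_WT, without overlap (1.16 ± 0.21, adjusted p = 0.000661), and from 0.32 to 0.71 in GC_KO against 1.67, 1.66, 0.99, 0.99 and 1.15 TPM in the FL_KO mice (1.03 ± 0.22, adjusted p = 0.00118). Col4a2 ran from 36.8 over 41.7 to 58.1 TPM in GC_KO and stood at 65.8, 68.5, 96.9, 96.9 and 149 TPM in FL_KO (0.67 ± 0.14, adjusted p = 0.000786). In WT mice its log2 fold change was 0.21 ± 0.13 (adjusted p = 0.276). Col4a1 had 0.53 ± 0.13 (adjusted p = 0.00331) in Nrf2-KO and 0.14 ± 0.12 (adjusted p = 0.475) in WT mice. Col6a3, the third type VI chain, ran from 2.91 to 4.14 TPM in GC_KO and stood at 8.68, 6.56, 5.09, 8.76 and 18 TPM in FL_KO (1.0 ± 0.22, adjusted p = 0.00135), mouse 12 being highest. Col1a1 (0.30 ± 0.30, adjusted p = 0.463), Col1a2 (0.38 ± 0.21, adjusted p = 0.177) and Col3a1 (0.40 ± 0.22, adjusted p = 0.172) were not called in Nrf2-KO mice.

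Of 101 collagen-related list genes tested in brown fat, 30 were called higher and 4 lower in Nrf2-KO mice, and 18 and 3 in WT mice. Of all genes 17.0% and 8.83% were called higher, and the lower shares are not given here. The collagen folding list gave 9 of 21 genes higher in Nrf2-KO brown fat, and 6 of 21 in WT mice with 1 lower. In Nrf2-KO mice it was led by the lysyl hydroxylase Plod3 (0.52 ± 0.07, adjusted p = 1.80e-05) and the collagen galactosyltransferase Colgalt1 (0.57 ± 0.08, adjusted p = 2.17e-05). Of the basement membrane partners 7 of 16 were higher in Nrf2-KO and 4 of 16 in WT mice, with perlecan (Hspg2) at 0.82 ± 0.12 (adjusted p = 1.43e-05) and 0.63 ± 0.11 (adjusted p = 0.000405). Tenascin C (Tnc) was higher in both, at 1.88 ± 0.36 (adjusted p = 0.000340) and 1.61 ± 0.35 (adjusted p = 0.00259). All 3 macrophage markers were called higher in Nrf2-KO mice and none in WT mice, and no fibroblast marker was called in either. Of the 3 tested erythroid markers all were called lower in both genotypes (Hbb-bs -1.43 ± 0.17 in WT and -1.06 ± 0.18 in Nrf2-KO mice). Of 4 adipocyte markers 2 were called higher in WT and 1 in Nrf2-KO mice, Adipoq in both, and of 3 endothelial markers 1 was called higher in Nrf2-KO mice, Pecam1 (0.29 ± 0.11, adjusted p = 0.0437). The part of these markers in the collagen differences was not tested. Without the 3 libraries with muscle transcripts, 2 members stayed past the threshold in WT mice, Col12a1 (1.46 ± 0.27, adjusted p = 0.00117) and Col23a1 (1.17 ± 0.23, adjusted p = 0.00220), and 10 in Nrf2-KO mice, with Col27a1 in place of Col5a1.

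In white fat the called members were mostly higher in WT and all lower in Nrf2-KO flight mice, each against the ground mice of its genotype. In FL_WT mice 6 of 32 tested members were called higher (all genes 6.65%) and 1 lower (all genes 6.78%), and in FL_KO mice none was called higher and 6 lower (all genes 3.98%). Col6a1 ran from 80.5 over 137 to 209 TPM in GC_WT and from 179 over 250 to 379 in FL_WT, with overlap (0.76 ± 0.17, adjusted p = 0.00528). Col8a1, of vessel and corneal matrix, ran from 1.99 to 3.77 TPM and from 3.7 to 7.48 (0.81 ± 0.18, adjusted p = 0.00424), also overlapping. Col18a1 ran from 37.4 to 82.9 TPM in GC_WT and from 95.3 to 119 in FL_WT, without overlap (0.44 ± 0.13, adjusted p = 0.0317). Col5a1 (0.64 ± 0.19, adjusted p = 0.0241), Col6a2 (0.59 ± 0.18, adjusted p = 0.0338) and Col16a1 (0.69 ± 0.23, adjusted p = 0.0496) were also higher, and Col6a6 was lower (-0.78 ± 0.26, adjusted p = 0.0497), against the other called chains of its class.

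Col6a6 was the only member called in both genotypes of eWAT. It ran from 5.76 over 7.62 to 22.9 TPM in GC_KO and stood at 3.89, 2.66, 2.86, 4.23 and 3.56 TPM in FL_KO, without overlap (-1.52 ± 0.28, adjusted p = 0.00209). Col6a5 varied widely among GC_KO mice: it ran from 8.31 over 23.2 to 81 TPM in GC_KO and stood at 5.64, 3.07, 5.11, 6.33 and 6.99 TPM in FL_KO, all below the ground mice (-2.67 ± 0.55, adjusted p = 0.00487). The GC_KO mice also lay above the GC_WT mice, which ran from 3.09 to 8.23 TPM (2.42 ± 0.50, adjusted p = 0.00874). Both contrasts of Col6a5 therefore rest on the same GC_KO mice. The other eWAT members called lower in FL_KO had positive log2 fold changes in GC_KO against GC_WT, and none was called there. These were 0.85 for Col6a6, 0.97 for Col4a4, 0.68 for Col4a5, 1.015 for Col4a6 and 0.29 for Col23a1. Between FL_KO and FL_WT mice edgeR called no member in eWAT. The less common type IV chains Col4a5 (-1.29 ± 0.36, adjusted p = 0.0276), Col4a4 (-1.12 ± 0.33, adjusted p = 0.0394) and Col4a6 (-1.82 ± 0.56, adjusted p = 0.0468) and Col23a1 (-0.75 ± 0.20, adjusted p = 0.0229) were lower in FL_KO, whereas Col4a1 (0.07 ± 0.12, adjusted p = 0.782), Col4a2 (0.00 ± 0.14, adjusted p = 0.998), Col1a1 (-0.12 ± 0.31, adjusted p = 0.863), Col1a2 (-0.26 ± 0.22, adjusted p = 0.529) and Col3a1 (-0.45 ± 0.28, adjusted p = 0.347) were not called.

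**Figure D4:**
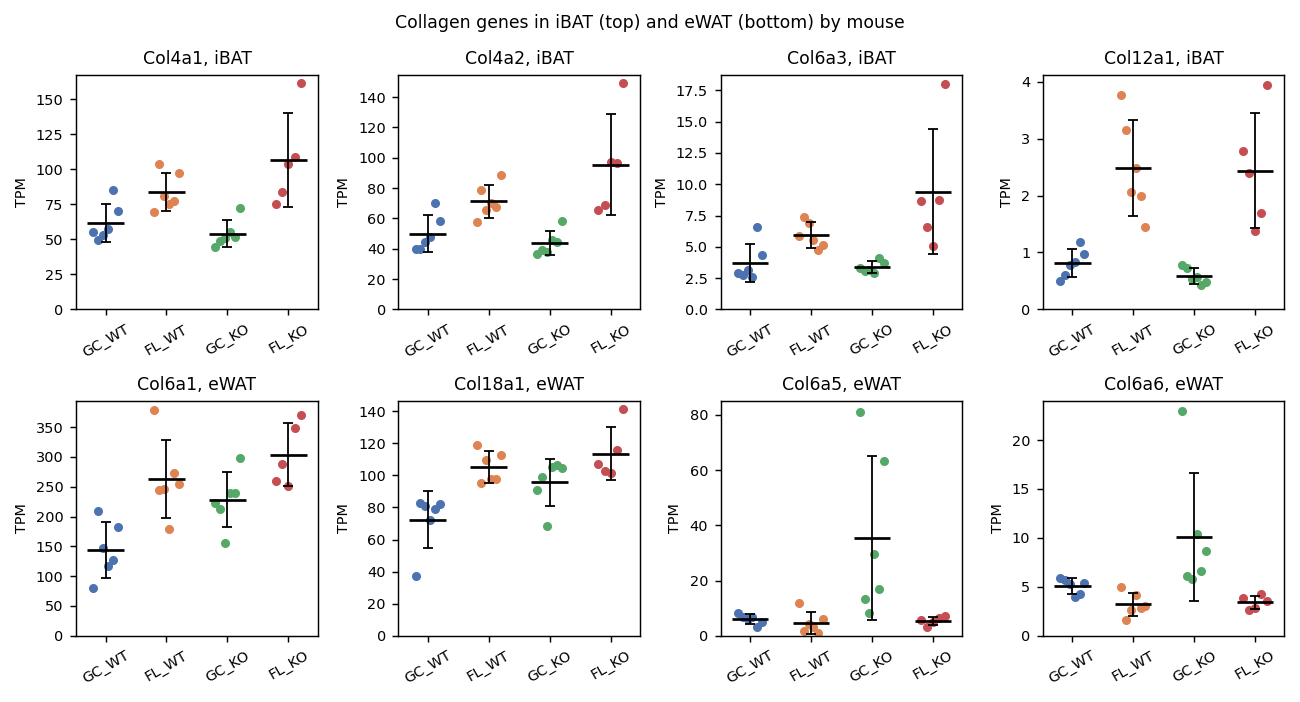
TPM of 4 collagen genes in iBAT (top row) and 4 in eWAT (bottom row), 1 point per mouse, with the mean (bar) and SD (whiskers) of the 4 groups. Col12a1 in iBAT separates flight from ground mice in both genotypes, and Col6a5 in eWAT spreads from 8.31 to 81 TPM among the GC_KO mice.

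In white fat 18 of 109 collagen-related list genes were called higher and 10 lower in WT mice (all genes 6.65% and 6.78%), and 9 and 11 in Nrf2-KO mice (all genes 3.73% and 3.98%). Fibril-associated proteins gave 8 higher and 2 lower of 18 in WT mice, with periostin (Postn) at 1.07 ± 0.12 (adjusted p = 9.14e-06), Tnc at 1.65 ± 0.20 (adjusted p = 1.70e-05) and osteoglycin (Ogn) at -0.67 ± 0.16 (adjusted p = 0.00750). The gelatinase Mmp2 was lower (-0.96 ± 0.16, adjusted p = 0.000464). Of its inhibitors, Timp1 was higher (2.02 ± 0.49, adjusted p = 0.00777) and Timp2 lower (-0.62 ± 0.15, adjusted p = 0.00701). In Nrf2-KO mice Mmp2 (-0.64 ± 0.17, adjusted p = 0.0247) and Timp2 (-0.59 ± 0.16, adjusted p = 0.0229) were also called lower, and Timp1 was not called. The laminin chain Lama1 was lower in both genotypes, by -1.92 ± 0.48 in WT (adjusted p = 0.00898) and -3.12 ± 0.55 in Nrf2-KO mice (adjusted p = 0.00168). The 5 fibroblast markers summed to 1100 to 1633 TPM in GC_WT and 684.3 to 1245 in FL_WT, with 4 of 5 called lower, and the 3 endothelial markers to 307.6 to 406.4 and 446.8 to 593.9, all 3 called higher; in Nrf2-KO mice 1 of 5 and 1 of 3 were called in these directions. Their part in the collagen differences was not tested. Leaving out 1 of several mice lowered the WT count to 3 or 4 (4 without FL_WT mouse 03, 06, 08 or 10 or GC_WT mouse 08, 3 without GC_WT mouse 03 or 07) and, in Nrf2-KO mice, 3 without FL_KO mouse 01, 2 without FL_KO mouse 02 and 3 without GC_KO mouse 01 or 09.

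The difference between the fat depots was also taken within each mouse, as log2 CPM (counts scaled to the library total) in eWAT minus that in iBAT, and tested with limma. Of 27 members 8 had a lower difference in FL_KO than in GC_KO mice (all genes 11.1%), and 1 in FL_WT than in GC_WT mice (all genes 6.89%). Col23a1 was called in both. Its difference ran from 1.34 over 1.86 to 2.58 in GC_KO and from -0.41 over 0.53 to 0.77 in FL_KO (-1.64 ± 0.28, limma adjusted p = 0.000291), and from 1.43 over 1.78 to 2.47 in GC_WT and from -0.52 over 0.46 to 0.98 in FL_WT (-1.42 ± 0.26, limma adjusted p = 0.00146). Ground and flight mice did not overlap in either genotype. Col6a3 (-1.23 ± 0.23, limma adjusted p = 0.000842) and Col4a2 (-0.65 ± 0.17, limma adjusted p = 0.00852) were also lower in FL_KO. The median over the members was -0.51 in Nrf2-KO mice, with 25 of 27 below 0, and 0.05 in WT mice.

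**Figure D5:**
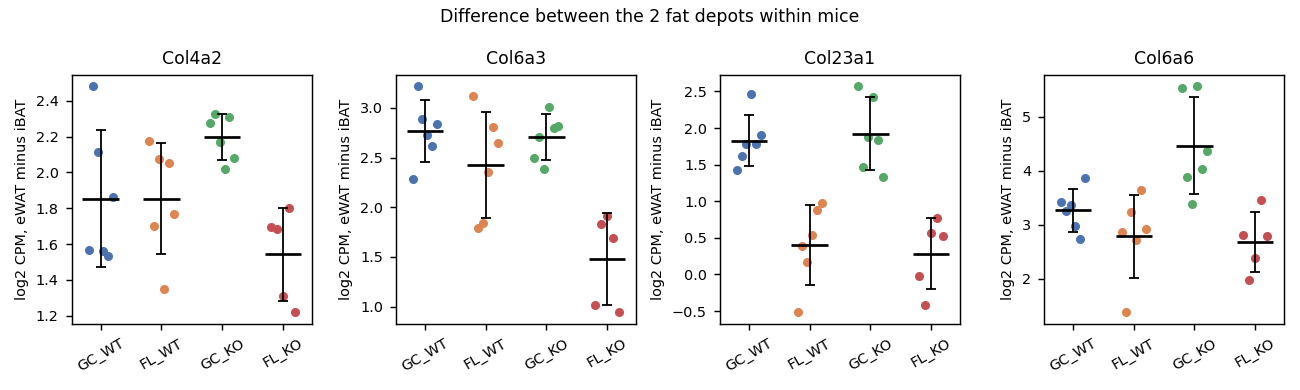
Difference of log2 CPM between eWAT and iBAT within each mouse for 4 collagen genes, 1 point per mouse, with the mean (bar) and SD (whiskers) of the 4 groups. For Col23a1 every flight mouse lies below every ground mouse of its genotype, and for Col4a2 and Col6a3 this holds in the Nrf2-KO mice.

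In spleen 6 of 35 members were called higher in FL_WT mice (all genes 1.15%) and none in FL_KO mice (all genes 0.668%). Col7a1, of anchoring fibrils, ran from 5.84 over 7.95 to 8.8 TPM in GC_WT and from 8.23 over 9.88 to 11.9 in FL_WT (0.42 ± 0.09, adjusted p = 0.0178), overlapping. Col16a1, a FACIT chain, ran from 7.89 to 9.08 TPM and from 9.3 to 11.4, without overlap (0.31 ± 0.07, adjusted p = 0.0344). Col18a1 (0.30 ± 0.08, adjusted p = 0.0392), Col6a1 (0.41 ± 0.11, adjusted p = 0.0421), Col6a2 (0.54 ± 0.15, adjusted p = 0.0497) and the low-level Col4a6 (1.09 ± 0.25, adjusted p = 0.0269) were the others. At an unadjusted p under 0.05, 19 members were higher in WT mice (all genes 8.09%) and 2 in Nrf2-KO mice (all genes 6.07%). DESeq2 also called none in Nrf2-KO mice, and limma called none in either genotype.

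The spleen count depended on single mice: it was 1 without FL_WT mouse 03, 0 without FL_WT mouse 05, 06 or 08, 2 without FL_WT mouse 07, 9 without FL_WT mouse 10, 1 without GC_WT mouse 03 or 06, 3 without GC_WT mouse 05 or 07 and 2 without GC_WT mouse 08. The 4 erythroid markers of the spleen, called lower in both genotypes, summed to 3175 to 11970 TPM in GC_WT and 612.9 to 2607 in FL_WT, and the 5 fibroblast markers to 86.36 to 112.3 and 107.4 to 148. Their part in the collagen differences was not tested. Of the list genes in WT spleen 8 of 114 were higher (all genes 1.15%) and 1 lower. They were led by Sparcl1 (0.59 ± 0.08, adjusted p = 0.00103) and the procollagen protease enhancer Pcolce (0.34 ± 0.06, adjusted p = 0.00340).

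In liver 1 of 24 members was called lower in FL_WT (all genes 1.91%), the FACIT chain Col14a1, which ran from 5.06 over 6.36 to 10.1 TPM in GC_WT and from 3.49 over 4.17 to 6.45 in FL_WT, with overlap (-0.64 ± 0.15, adjusted p = 0.0225). The median of the members was -0.39 with 20 of 24 below 0, and 13 were lower at an unadjusted p under 0.05 (all genes 8.75%). No member was called in FL_KO (all genes 3.34%), with 4 lower at an unadjusted p under 0.05 by edgeR (all genes 8.12%); 1 was called with mouse number as a block. The hepatic macrophage markers summed to 12.41 to 29.26 TPM in GC_WT and 8.02 to 15.55 in FL_WT.

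In kidney 1 member was called lower in FL_KO (all genes 0.0926%), Col3a1, at 4.72, 3.65 and 4.87 TPM in GC_KO mice 02, 11 and 12 and 2.36, 2.46 and 3.09 in FL_KO mice 01, 02 and 11 (-0.82 ± 0.13, adjusted p = 0.0427), without overlap. The call was lost without FL_KO mouse 01 or 02 or without any 1 GC_KO mouse, and 6 members were called without FL_KO mouse 11. In FL_WT edgeR called none (all genes 0.119%), with 1 higher and 5 lower at an unadjusted p under 0.05 (all genes 3.14% and 3.49%), and DESeq2 called 2; Col3a1 had -0.64 ± 0.13 (adjusted p = 0.129) there. Col1a1 was -1.08 ± 0.23 (adjusted p = 0.103) in FL_KO.

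In the bones and the cerebrum edgeR called no member changed by flight. In TpB this held for all genes (0% in both genotypes), with 1 member higher in WT mice (all genes 1.21%) and 1 lower in FL_KO mice (all genes 1.17%) by an unadjusted p under 0.05. In MdB it also held for all genes (0% in both), with 13 of 41 members higher in WT mice (all genes 4.39%) and 1 lower in FL_KO mice (all genes 1.79%) by that measure. Col1a2 in MdB stood at 2018, 1980 and 1362 TPM in GC_WT mice 03, 07 and 08 and at 2848, 2527 and 3291 in FL_WT mice 03, 05 and 06, without overlap (0.61 ± 0.18, adjusted p = 0.413), while Col1a1 was 0.07 ± 0.17 (adjusted p = 0.932). In Cbr 0.0244% of all genes were called in WT and 0.00610% in Nrf2-KO mice, and, by an unadjusted p under 0.05, 10 of 41 members were higher and 2 lower in WT mice (all genes 2.08% and 1.27%), against 3 higher and 4 lower in FL_KO mice (all genes 2.69% and 2.84%). DESeq2 and limma called none in these tissues either.

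Without flight, few members were called different between genotypes. The eWAT members called higher in FL_WT also had log2 fold changes above 0 in GC_KO against GC_WT. These ran from 0.23 (Col8a1) to 0.56 (Col6a1), and none was called (adjusted p of 0.0870 or more). Those called higher in Spl ran from 0.051 (Col4a6) to 0.29 (Col6a1) there, none called (adjusted p of 0.265 or more). The part of these ground differences in the flight counts was not tested. In eWAT Col6a5, described above, and Col17a1 were higher in GC_KO than in GC_WT (all genes 1.33%); Col17a1 ran from 0.06 to 0.25 TPM in GC_WT and from 0.35 to 0.76 in GC_KO (1.52 ± 0.29, adjusted p = 0.00446). In Spl Col28a1 ran from 0.85 to 1.42 TPM in GC_WT and from 1.75 to 2.26 in GC_KO (0.73 ± 0.14, adjusted p = 0.00715, all genes 0.588%). Liv had Col20a1 higher (1.09 ± 0.24, adjusted p = 0.0112, all genes 0.938%), at a low level (GC_WT median 0.35 TPM) and with overlapping ranges. In Cbr Col6a2 ran from 4.37 to 6.77 TPM in GC_WT and from 7.14 to 8.94 in GC_KO (0.55 ± 0.10, adjusted p = 0.00452), and Col1a1 was 0.87 ± 0.21 (adjusted p = 0.0390; all genes 0.427%). In Kid Col14a1 stood at 6.4, 6.14 and 6.51 TPM in GC_WT mice 06, 07 and 10 and 4.49, 3.61 and 4.03 in GC_KO mice 02, 11 and 12, and was lower (-0.67 ± 0.11, adjusted p = 0.00739; all genes 1.04%).

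Among flight mice the genotypes differed in 3 tissues. In Spl Col28a1 was higher in FL_KO than in FL_WT mice (0.96 ± 0.15, adjusted p = 0.000447; all genes 0.495%). In Liv Col20a1 (1.25 ± 0.25, adjusted p = 0.00411), Col6a1 (0.77 ± 0.20, adjusted p = 0.0303) and Col4a2 (0.51 ± 0.14, adjusted p = 0.0485) were higher and Col27a1 lower (-0.81 ± 0.19, adjusted p = 0.0186), where 3.65% of all genes were called in either direction; the count was 2 without FL_KO mouse 12. In Thy Col6a6 (0.81 ± 0.16, adjusted p = 0.00674), Col17a1 (0.94 ± 0.19, adjusted p = 0.00837), Col6a5 (0.76 ± 0.17, adjusted p = 0.0149) and Col6a1 (0.49 ± 0.13, adjusted p = 0.0333) were higher (all genes 1.31%).

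The difference between the genotypes in their response to flight was tested as an interaction. The interaction of flight and genotype called 0 members in Thy, iBAT, eWAT and Spl by edgeR, where it called 0% of all genes in each of these tissues. Counts at an unadjusted p under 0.05 were 9 of 30 higher in Thy (all genes 5.07%), 5 of 28 higher in iBAT (all genes 3.34%), 2 of 32 lower in eWAT (all genes 4.38%) and 3 of 35 lower in Spl (all genes 1.89%). By sign alone, the log2 fold change was more positive in Nrf2-KO than in WT mice for 27 of 30 members in Thy and 23 of 28 in iBAT. It was more negative for 29 of 32 in eWAT and 29 of 35 in Spl. This compares signed values and not sizes of change, and the share over all genes is not given here. The smallest adjusted p was 0.368 in Thy, 0.436 in iBAT, 0.416 in eWAT and 0.999 in Spl. The differing counts of called genes in the 2 genotypes are therefore not shown to differ gene by gene.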

How the data were processed

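RNA from 9 mouse tissues was sequenced with strand-specific single reads. Per the labels and the study's methods, the authors aligned reads with STAR 2.6.1 to mm10 and quantified genes with RSEM 1.3.1 on GENCODE vM20. They deposited expected counts, TPM and FPKM for each sample. The 192 FPKM columns were not used. Coordinates are from GENCODE vM21, which held all 44 members.

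Expected counts were rounded and tested per tissue in 1 fit of 4 groups with edgeR 4.0.16 (R 4.3.3; filterByExpr, TMM, quasi-likelihood, Benjamini-Hochberg adjustment over all genes). The deposited TPM values describe levels. DESeq2 1.42.0 and limma 3.58.1 (log2(TPM + 1) and log2(TPM + 0.1), genes of at least 5 TPM in a group) were alternatives, and limma tested the depot difference. The scripts were tested on simulated data. The members and lists were chosen with earlier results of these data known. Genes were named if they were the 3 highest per tissue, had the smallest adjusted p per direction among called genes (up to 4, and 2 per list, with a mean of at least 1 TPM), were called in both genotypes or against their class, or were Col1a1, Col1a2, Col3a1, Col4a1, Col4a2 or Nfe2l2; others named were chosen after their values were seen.

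Flight and ground mice of a number are different animals, and the main counts take no pairing. In the Nrf2-KO livers all 5 same-numbered pairs correlated above the limit set beforehand (0.222 to 0.369). With mouse number as a block 1 member was called there. Pairs of different numbers were not compared, so these correlations cannot show a pairing.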

Additional observations from a re-analysis of the deposited data

Results flagged for a closer look

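In groups of 5 or 6 mice, 336 combinations of gene, tissue and group were examined for a mouse standing apart from the others by Dixon's 95% limit, and 23 did (6.845%), where chance gives about 5%. All values are TPM, and no explanation was tested.

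In eWAT, FL_WT mouse 03 was high for Col1a1 (212.0, others 40.89 to 95.47), Col3a1 (659.8, others 148.2 to 282.3), Col16a1 (15.87, others 4.67 to 6.84) and Col4a6 (2.93, others 0.31 to 0.96). GC_KO mouse 01 was high for Col6a6 (22.94, others 5.76 to 10.43) and Col23a1 (6.01, others 1.85 to 3.26), and GC_WT mouse 03 low for Col18a1 (37.4, others 71.93 to 82.86).

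In Spl, FL_KO mouse 11 was low for Col16a1 (7.52) and Col1a2 (57.87), FL_WT mouse 08 was high for Col1a1 (74.94, others 23.83 to 30.58), and GC_WT mouse 10 for Col3a1 (30.64). In TpB, GC_WT mouse 05 was high for Col1a1 (899.3) and Col1a2 (802.1). In Liv, GC_WT mouse 07 was high for Col1a1 (19.86, others 2.17 to 3.8), GC_WT mouse 08 for Col3a1 (6.31), and GC_KO mouse 01 low for Col6a1 (1.67).

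In Thy, GC_WT mouse 08 was high for Col18a1 (8.28), FL_WT mouse 07 low for Col19a1 (0.13, others 0.52 to 0.62) and GC_KO mouse 12 high for Col6a5 (1.08). In iBAT, GC_KO mouse 12 was high for Col4a1 (72.62), FL_WT mouse 07 low for Col6a2 (13.06) and FL_KO mouse 12 high for Col6a3 (17.97, others 5.09 to 8.76). In Cbr, FL_WT mouse 08 was high for Col1a1 (2.09).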

How the results depend on the processing

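Counts of called collagen genes changed with the processing, and for none of these changes was the cause tested. In FL_WT against GC_WT, the 6 of Spl became 0 with limma at either pseudocount and 1 with no filter on low counts, the 1 of Liv became 2 with DESeq2 and 0 with limma, the 4 of iBAT became 2 with no filter and 2 without the libraries with muscle transcripts, the 5 of Thy became 3 with no filter, and the 0 of Kid became 2 with DESeq2 and 1 with no filter. In FL_KO against GC_KO, the 0 of Liv became 1 with flight mouse 04 included, the 6 of eWAT became 2 and the 21 of Thy became 7 with limma, which tested only genes of at least 5 TPM in a group, and the 1 of Kid became 4 with DESeq2 or no filter and 0 with limma. In GC_KO against GC_WT, DESeq2 gave 4 against 1 in Spl, 2 against 1 in Liv, 5 against 2 in eWAT, 1 against 0 in Thy and 5 against 2 in Cbr, limma gave 0 in Spl and Liv and 1 in eWAT and Cbr, Spl had 2 with mouse 04 and Liv 2 with no filter. In FL_KO against FL_WT, DESeq2 gave 7 in Liv, 2 in eWAT and 1 in Kid (edgeR 4, 0 and 0), limma gave 0 in Spl and Thy and 1 in Liv (edgeR 1, 4 and 4), Spl had 2 with mouse 04 and Kid 1 with no filter. The depot difference in WT mice gave 3 with mouse 04 and 0 on log2(TPM + 1) against 1. Of the collagen-related lists, WT spleen gave 15 with DESeq2, 4 with limma and 5 with no filter against 9, Nrf2-KO spleen 2 with DESeq2 and 2 with mouse 04 against 1, and Nrf2-KO eWAT 12 with limma against 20. Ranking the GC_WT mice by their leading collagen on CPM in place of TPM left 2 mice of TpB, 2 of Spl and 0 of Liv at the same rank of 6. Over 86 single-gene results, 1201 values under alternatives held 981 on the same side of the threshold, 220 no longer past it and 0 of opposite sign.

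With mouse number as a replicate block, WT counts were 0 in Spl, 2 in Liv, 6 in eWAT, 5 in iBAT and 4 in Thy, Nrf2-KO counts 1 in Liv, 7 in eWAT, 14 in iBAT, 21 in Thy and 0 in Kid, the depot difference gave 2 in WT mice, and the spleen lists 3 in Nrf2-KO mice. Outside the Nrf2-KO livers a pair fell at or under the limit or there were fewer than 3 pairs (in Nrf2-KO MdB both of 2 passed). The main counts of every tissue, liver included, do not use the number as a pairing.

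Leaving out 1 mouse at a time gave 0 to 9 in Spl, 2 to 7 in Thy and 3 to 8 in eWAT (FL_WT against GC_WT); 19 to 22 in Thy, 2 to 6 in eWAT, 9 to 11 in iBAT and 0 to 6 in Kid (FL_KO against GC_KO); 1 to 2 in Spl (2 without GC_WT mouse 10), 0 to 2 in Thy (2 without GC_KO mouse 11, 1 without GC_WT mouse 06) and 2 to 5 in eWAT (5 without GC_KO mouse 04, 4 without GC_WT mouse 05) for GC_KO against GC_WT; and 2 to 6 in Liv, 3 to 5 in Thy, 0 to 3 in Kid, 0 to 1 in eWAT and 0 to 1 in iBAT for FL_KO against FL_WT. The interaction in Thy gave 0 to 1, the depot difference in Nrf2-KO mice 6 to 10, and the lists 4 to 15 (Spl, WT), 18 to 33 (Thy, WT), 53 to 62 (Thy, KO), 13 to 22 (eWAT, KO), 23 to 32 (eWAT, WT) and 27 to 37 (iBAT, KO). Single mice of eWAT, Thy and Spl, and the muscle libraries of iBAT, were left out after seeing the data. Groups of 2 or 3 mice in MdB and Kid limit what could be detected there, as do members near 0 TPM.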
